A study of Mus musculus with 6 samples.

Results

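Translation initiation and elongation factors are the proteins that bring an mRNA, the initiator tRNA and the ribosome together and then carry the ribosome along the message. Their transcripts were chosen by gene symbol: every row of the deposited table beginning with Eif1 to Eif6, Eef1 or Eef2, without the eIF2alpha kinases (Eif2ak) and a Y-linked copy, and with an average level of 1 FPKM or more across the 6 libraries (FPKM counts fragments per kilobase of a transcript and corrects for library size). This gave 56 genes out of 18518 gene symbols, of which 12187 reached that mean and were tested. The 2 matching symbols below it were Eif3j1, at 0.0791 to 0.0810 FPKM, and Eif4e1b, at 0 to 0.203 FPKM. The study compared wild-type (WT) cells of E14Tg2A, an established male line of mouse embryonic stem cells, with BACH1-KO cells derived from it, in which Bach1 was edited with CRISPR/Cas9, and each genotype gave 3 RNA sequencing libraries. BACH1 is a heme-binding transcription factor that represses genes of the oxidative stress response. Cells of both genotypes were kept for 2 days in medium with fetal bovine serum and 200 units/ml of mouse leukemia inhibitory factor, the cytokine that sustains self-renewal. The knockout cells were sorted as single-cell clones after puromycin selection. The labels do not say whether the 3 knockout libraries came from 1 clone or whether libraries were separate cultures, so p-values measure library-to-library spread alone, and that spread may be technical.

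In cap-dependent initiation, eIF4E binds the cap of the mRNA, the scaffold eIF4G joins it to the RNA helicase eIF4A, and eIF3 links this eIF4F complex to the small ribosomal subunit. eIF2 delivers the initiator tRNA, eIF2B recharges eIF2 with GTP, and eIF1 and eIF1A hold the ribosome open while it scans for the start codon. The 4E-binding proteins compete with eIF4G for eIF4E when mTORC1 does not phosphorylate them, and in elongation eEF1A brings each aminoacyl-tRNA while eEF2 moves the ribosome to the next codon. Embryonic stem cells are known for a low overall rate of protein synthesis that rises on differentiation.

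The summed FPKM of the libraries was 785800 to 805118 in WT and 762745 to 766086 in BACH1-KO. Read counts were not used, so the absolute depth is unknown. Gene symbols above 0 FPKM numbered 16047 to 16159 in the WT libraries and 17276 to 17455 in the BACH1-KO libraries. The reason for this difference was not tested. Transcript of the targeted gene Bach1 was at 7.97 to 8.47 FPKM in WT, and the knockout libraries had 10.4 to 10.5 FPKM, a level that says nothing of edits in the coding sequence. All 6 embryonic stem cell markers examined were expressed in every library, and together they held 1.26% to 1.36% of the FPKM total of WT libraries and 0.844% to 0.879% of that of BACH1-KO libraries. Pou5f1, Sox2, Zfp42, Dppa5a and Tdgf1 were lower and Nanog was higher (298.5 ± 3.96 and 313.3 ± 3.68 FPKM, adjusted p = 0.0419), and Dppa5a, at 6606 ± 463.2 and 4284 ± 134.3 FPKM, made up most of the sum. Of 24 hepatocyte markers, 22 were higher in BACH1-KO and 2 were too low to test. Summed, they reached 12.2 to 18.6 FPKM in WT, where 13 of them were listed at 0 in at least 1 library, among them Apoa2, Apob and Ttr, and 1015 to 1050 FPKM in BACH1-KO, or 0.133% to 0.138% of the total. Of 10 fibroblast feeder markers 3 were lower, 0 higher and 7 too low to test, with sums of 199.3 to 218.7 and 67.1 to 70.1 FPKM, and Col3a1, Dcn and Lum listed at 0 in at least 1 WT library. Vim, which many cell types express, held most of these sums, at 186.5 ± 9.31 and 54.9 ± 1.35 FPKM. Of the 7 too low to test, Col1a1 was below WT in every knockout library and the other 6 were above it, among them Dcn at 0.0664 ± 0.0806 and 0.764 ± 0.0944 FPKM. The part of these other transcripts in the differences below was not tested. In bulk RNA, fewer cells of a type and less RNA per cell cannot be told apart.

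More translation factor transcripts fell than rose in the BACH1-KO cells, and the eIF4A helicase genes Eif4a2 and Eif4a1 fell furthest. Of the 56 genes, 30 were lower, 16 higher and 10 not past the threshold (limma on log2(FPKM + 1), Benjamini-Hochberg adjusted p under 0.05 over all tested genes). With quantile normalization the split was 23 lower and 22 higher. Among all tested genes 77.0% passed, 37.3% higher and 39.7% lower. The median log2 change, the BACH1-KO mean of log2(FPKM + 1) less the WT mean, was -0.01 over all tested genes and -0.16 over the translation factors. Most translation factors are abundant, and abundant genes as a class were more often lower: of the 2089 tested genes averaging 50 FPKM or more, 83.6% passed, 55.0% lower and 28.6% higher. The 42 translation factors above that level had 26 lower and 11 higher (61.9% and 26.2%), close to that class, with median log2 changes of -0.27 for the factors and -0.17 for the class. The groups did not overlap for 48 of the 56 genes, and for 79.3% of all tested genes. Tested against a fold change of 1.5, 7 translation factors were lower and 5 higher, where 8.16% of all tested genes were lower and 10.9% higher. These 12 were Eif4a2, Eif4a1, Eif4b, Eif5a, Eif3a, Eef1d and Eif4a3 on the lower side and Eif1b, Eif4e3, Eif4ebp1, Eif2b2 and Eif1 on the higher. At this fold change the abundant class also leaned lower, with 244 of its 2089 genes lower and 117 higher. Of the 42 abundant factors 7 were lower and 3 higher.

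**Figure D1:**
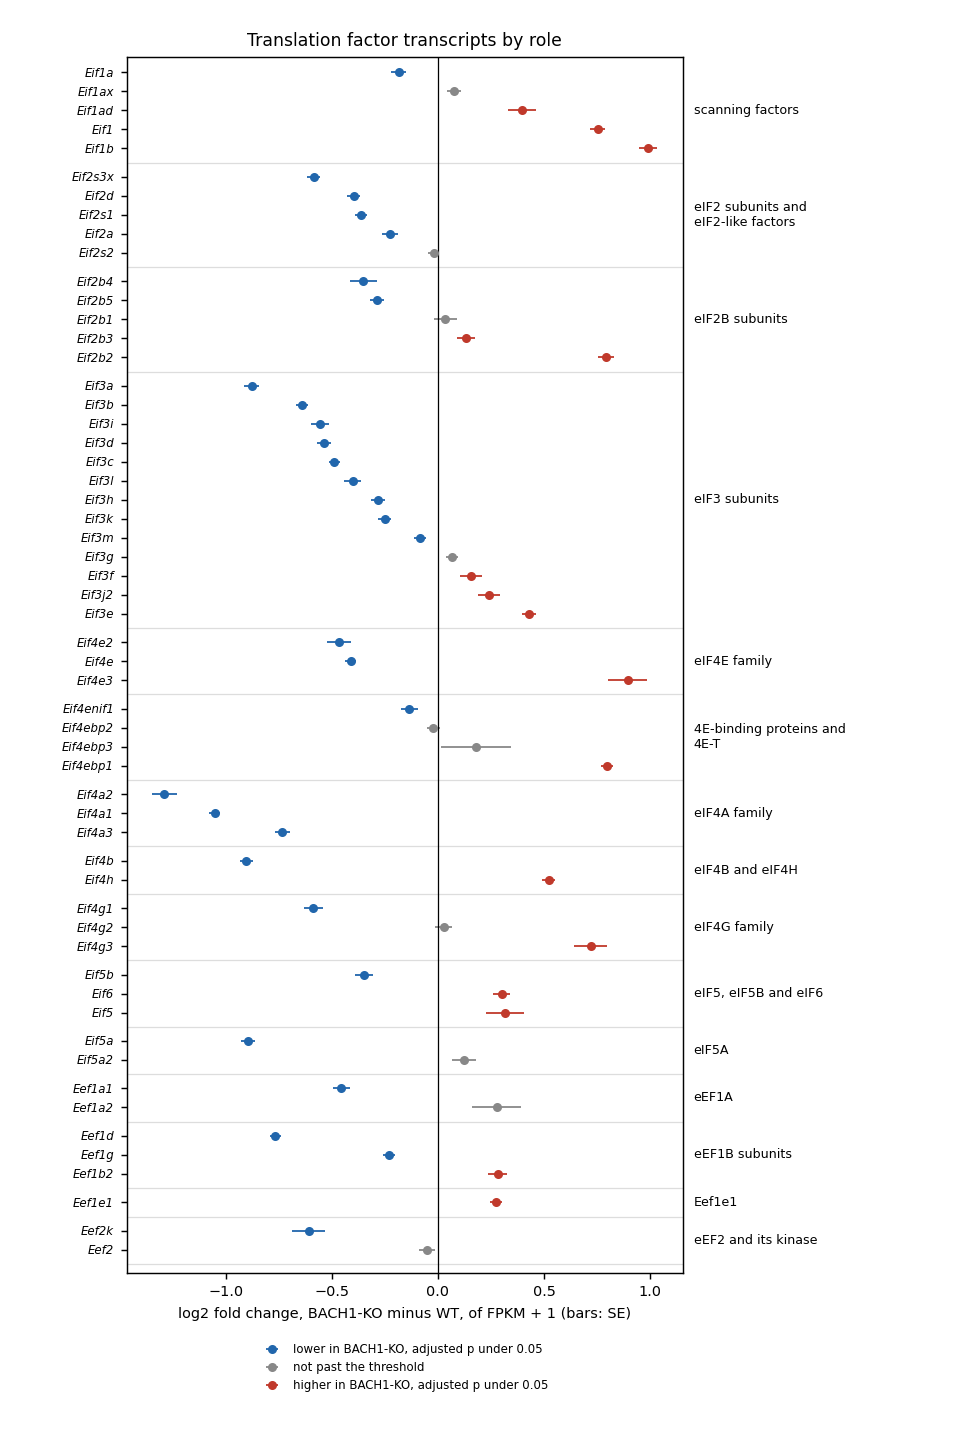
Log2 change of FPKM + 1, BACH1-KO minus WT (x axis, bars are SE from limma, 3 libraries per group), for the 56 translation factor genes (y axis) grouped by role. All 3 eIF4A genes lie at -0.73 or further left, Eif1b lies furthest right at 0.99, and most roles hold genes on both sides of 0.

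Together the 56 transcripts made up 3.86%, 3.90% and 3.96% of the summed FPKM in the WT libraries and 3.16%, 3.21% and 3.20% in the BACH1-KO libraries. Each knockout library was below each WT library. Eef1a1 alone accounted for 1.79% to 1.87% and 1.37% to 1.41%. Without it the share was 2.06% to 2.08% in WT and 1.79% to 1.80% in BACH1-KO. The other 7 genes with Eef symbols together were at 0.498%, 0.504% and 0.495% in WT and 0.502%, 0.496% and 0.496% in BACH1-KO. These values overlap. The lower sum apart from Eef1a1 therefore lay in the 48 genes with Eif symbols, at 1.56% to 1.59% and 1.29% to 1.30%, and it was not spread evenly over them. The eIF4A genes held 0.460% to 0.471% in WT and 0.226% in BACH1-KO, and the eIF5A genes 0.188% to 0.201% and 0.108% to 0.112%. Sums of the other Eif roles went both ways. Those of the scanning factors were higher in BACH1-KO, at 0.194% to 0.199% against 0.129% to 0.131% in WT.

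The region before the transcription start was read for the genes with an entry in RefSeq's promoter table (build GRCm38.p6, the sequence of mm10), which held 43 of the 56. The E-box CACGTG, the letters bound by MYC and related factors, was found in the 250 bases before an annotated start of 11 of the 43 genes (25.6%), in 938 of 9192 tested genes with an entry (10.2%) and in 6.86% of all symbols in the table. The comparison genes were not matched to the translation factors by level, and most of the factors are abundant. CACGTG reads the same on both strands, and a gene with several annotated starts counted once if any of them held it. The 11 genes were Eef2, Eef2k, Eif1b, Eif3f, Eif3k, Eif4a1, Eif4e, Eif4g1, Eif4h, Eif5a and Eif5a2. They do not share a direction: the letters were in 6 of the 25 lower genes with an entry, 3 of the 10 higher and 2 of those not past the threshold. Entries were uneven, covering 25 of all 30 lower and 10 of all 16 higher genes. Myc fell from 16.9, 9.50 and 10.9 FPKM to 1.33, 1.80 and 1.19 FPKM (log2 change -2.43, SE 0.19, adjusted p = 8.02e-06), its partner Max from 57.8 ± 0.409 to 44.2 ± 0.914 FPKM (SD, n = 3 per group), and Mycn was at 41.0 ± 0.242 and 42.6 ± 1.40 FPKM (adjusted p = 0.220). The BACH and NRF2 element TGANTCAGC was in 0 of the 43 windows and in 1.10% of tested genes. TGATGNAA, a C/EBP-ATF element, was in 2 of 43 (Eef2k and Eif2s3x) and in 2.25%, and the STAT element TTCNNNGAA in 5 of 43 (Eef1e1, Eef2k, Eif3c, Eif3g and Eif4e) and in 6.91%. Both strands were searched, and a match is a description of letters and not of binding. Whether Myc or any factor that binds these elements has a part in the differences was not tested. The 6 windows of 100 bases from GRCm38 are printed 5′ to 3′ on the gene's strand, with the E-box in capitals, to show the letters in genes that fell (Eif4a1, Eif5a, Eif4g1), rose (Eif1b, Eif4h) and did not pass (Eef2).
Eif4a1, chr11:69672558-69672657, minus strand: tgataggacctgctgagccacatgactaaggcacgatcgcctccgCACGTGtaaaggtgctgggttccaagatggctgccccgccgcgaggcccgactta
Eif5a, chr11:69921406-69921505, minus strand: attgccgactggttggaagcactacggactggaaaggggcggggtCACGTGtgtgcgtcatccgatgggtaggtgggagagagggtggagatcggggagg
Eif4g1, chr16:20672627-20672726, plus strand: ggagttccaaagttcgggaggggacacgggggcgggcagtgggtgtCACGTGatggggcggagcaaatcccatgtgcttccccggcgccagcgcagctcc
Eif1b, chr9:120492506-120492605, plus strand: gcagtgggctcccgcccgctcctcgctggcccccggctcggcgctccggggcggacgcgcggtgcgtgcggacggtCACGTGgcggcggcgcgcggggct
Eif4h, chr5:134639451-134639550, minus strand: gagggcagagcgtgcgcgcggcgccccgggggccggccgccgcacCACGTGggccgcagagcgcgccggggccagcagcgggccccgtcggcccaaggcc
Eef2, chr10:81176531-81176630, plus strand: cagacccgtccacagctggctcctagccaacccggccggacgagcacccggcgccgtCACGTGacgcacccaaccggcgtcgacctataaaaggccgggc
The printed E-box begins 189 bases before the start in Eif4a1, 185 or 74 bases before 2 of the annotated starts of Eif5a, 54 in Eif4g1, 24 in Eif1b, 96 in Eif4h and 43 in Eef2. Another annotated start of Eif5a has a separate E-box, not printed, 178 bases before it.

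The eIF4A family, the DEAD-box RNA helicases that unwind mRNA leaders, fell as a whole. Eif4a1 (chromosome 11, 69666936 to 69672423, mm10), the main helicase of eIF4F and the second most abundant factor transcript in WT, was at 2418, 2384 and 2400 FPKM in WT and at 1159, 1159 and 1154 FPKM in BACH1-KO. The knockout values lie in a narrow band at 48.2% of the WT mean (log2 change -1.05, SE 0.03, adjusted p = 3.05e-08). Eif4a2 (chromosome 16, 23107444 to 23114136), its paralog, which is known for a role with microRNA repression, was at 1014, 1175 and 1184 FPKM in WT and 458.6, 453.2 and 463.6 FPKM in BACH1-KO. It had the lowest log2 change of the 56 genes, -1.29 (SE 0.06, adjusted p = 4.03e-07), and the spread among its WT libraries was wider than among its knockout libraries. Eif4a3, the helicase of the exon junction complex and not of eIF4F, was at 182.1, 184.7 and 194.3 FPKM in WT and 112.9, 113.7 and 109.7 FPKM in BACH1-KO (log2 change -0.73, SE 0.03). The summed level of the 3 genes was 3614, 3744 and 3779 FPKM in WT and 1730, 1725 and 1727 FPKM in BACH1-KO, 0.465 of the WT mean. Exons of Eif4a2 overlap those of Rfc4 on the other strand by up to 186 bases, and the labels do not say whether the counting used strand. Exons of Eif4a2 and Eif4a1 also overlap small RNA genes on the same strand. Of the 56 genes, 22 have exons that overlap another annotated gene and 11 a coding gene, and not all of these are named here.

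The helicase cofactors moved in opposite directions. Eif4b, which stimulates eIF4A and is a target of S6 kinase, was at 263.8, 258.2 and 262.5 FPKM in WT and 142.9, 136.5 and 139.1 FPKM in BACH1-KO (log2 change -0.90, SE 0.03, adjusted p = 9.57e-08). Eif4h, a smaller protein with a similar activity, rose from 96.4, 96.8 and 98.8 FPKM to 137.9, 145.0 and 137.6 FPKM (log2 change 0.52, SE 0.03, adjusted p = 2.11e-06). Eif4b was well above Eif4h in WT, and in BACH1-KO their ranges overlapped, with means of 139.5 and 140.1 FPKM.

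**Figure D2:**
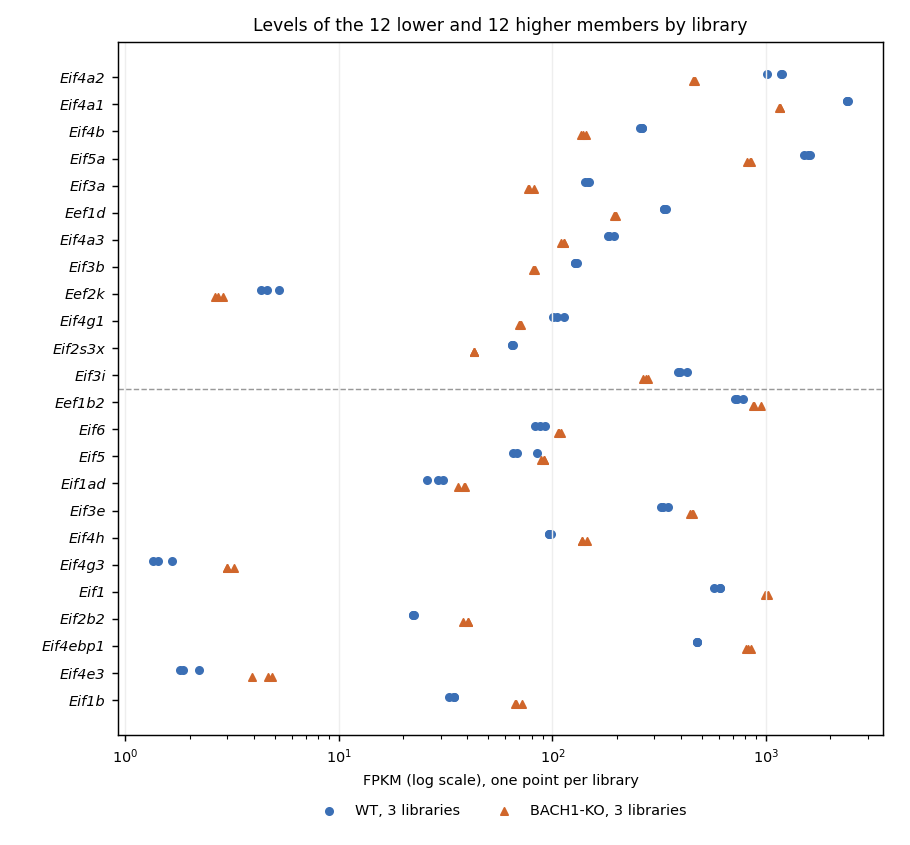
FPKM in each library on a log axis (x) for the 12 lower (above the dashed line) and 12 higher genes that passed and had the largest log2 change (y axis); circles are WT and triangles BACH1-KO. The groups are apart in every row, and Eif4a1, Eif5a and Eif4a2 are the most abundant of the lower genes.

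Among the scaffolds and cap-binding proteins Eif4g1, Eif4e and Eif4e2 fell, the scarce Eif4g3 and Eif4e3 rose, and Eif4g2, as abundant as Eif4g1 in WT, did not pass. Eif4g1, the principal scaffold, was at 113.3, 100.8 and 105.0 FPKM in WT and 69.6, 71.0 and 70.6 FPKM in BACH1-KO (log2 change -0.59, SE 0.04). Eif4g3, a related scaffold expressed far less, went from 1.66, 1.35 and 1.42 FPKM to 3.23, 2.98 and 3.00 FPKM (log2 change 0.72, SE 0.08). Eif4g2, which encodes DAP5, a scaffold that lacks the eIF4E site, was at 110.1 ± 5.57 and 112.0 ± 0.919 FPKM, with overlapping groups (log2 change 0.03, SE 0.04, adjusted p = 0.556), and passed as higher with quantile normalization. Eif4e, the cap-binding protein itself, was at 134.8, 133.8 and 134.0 FPKM in WT and 101.3, 99.8 and 100.8 FPKM in BACH1-KO, 75.0% of the WT mean, with little spread in either group (log2 change -0.41, SE 0.03, adjusted p = 2.65e-06). Eif4e2, a cap-binding homolog that represses translation with GIGYF2, fell from 79.9, 87.6 and 92.0 FPKM to 59.3, 62.3 and 65.1 FPKM (log2 change -0.47). Eif4e3, another family member, rose from 1.80, 2.20 and 1.85 FPKM to 4.88, 3.93 and 4.67 FPKM (log2 change 0.89, SE 0.09, adjusted p = 4.20e-05). Genes at this low level rose more often than others, 44.7% of the 3574 tested genes averaging under 5 FPKM against 37.3% of all, and exons of Eif4e3 overlap those of the annotated coding gene Gm20696 on the same strand by up to 156 bases.

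The 4E-binding proteins did not move together. Eif4ebp1 was at 475.9, 474.6 and 474.6 FPKM in WT and 809.1, 846.6 and 822.5 FPKM in BACH1-KO, a rise of 1.74 times (log2 change 0.80, SE 0.03, adjusted p = 1.36e-07). The WT libraries differ little from one another, and every knockout library is above them. Eif4ebp2 was at 50.8, 50.7 and 49.3 FPKM in WT and 49.3, 49.5 and 49.6 FPKM in BACH1-KO, with overlapping groups (log2 change -0.02, SE 0.03, adjusted p = 0.527, above 0 with median-of-ratios scaling, an equal sum of FPKM and quantile normalization). Eif4ebp3, the scarcest, was at 3.60 ± 1.07 and 4.15 ± 0.667 FPKM (adjusted p = 0.349). It passed as higher without the first WT library (log2 change 0.36, adjusted p = 0.0282), and its exons overlap another coding gene on the same strand. Eif4enif1, which encodes the 4E-transporter 4E-T, fell from 47.9 ± 0.867 to 43.5 ± 1.85 FPKM (adjusted p = 0.0144). This call was lost with an equal sum of FPKM and with quantile normalization. The ratio of Eif4ebp1 to Eif4e transcript was 3.53, 3.55 and 3.54 in WT and 7.99, 8.48 and 8.16 in BACH1-KO, and that of Eif4ebp2 to Eif4e 0.375 ± 0.00609 and 0.492 ± 0.00422, both ratios chosen after the values were seen. Transcript ratios do not give the phosphorylation of the 4E-binding proteins.

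The scanning factors contained the largest rise on the log2(FPKM + 1) scale. Eif1b, a close paralog of Eif1, was at 32.8, 34.5 and 34.8 FPKM in WT and 72.0, 66.4 and 67.2 FPKM in BACH1-KO, 2.02 times as high (log2 change 0.99, SE 0.04, adjusted p = 3.52e-07). Eif1, which guards the choice of start codon, was at 568.5, 608.4 and 608.7 FPKM in WT and 990.8, 998.9 and 1021 FPKM in BACH1-KO (log2 change 0.75, SE 0.04, adjusted p = 4.93e-07). Eif1 stood at 1.69 times its WT mean and was the fifth most abundant factor transcript in the knockout cells. Eif1ad, named for an eIF1A-like domain, rose from 30.7, 29.0 and 25.7 FPKM to 36.1, 38.5 and 38.7 FPKM (log2 change 0.40, SE 0.06), and its exons overlap those of Banf1 on the other strand by up to 428 bases. The genes of eIF1A itself split: Eif1a fell from 115.5, 111.8 and 107.6 FPKM to 98.6, 98.7 and 96.7 FPKM (adjusted p = 0.00123, lost with quantile normalization), and the X-linked Eif1ax was at 265.2, 272.5 and 277.2 FPKM in WT and 290.3, 276.4 and 292.4 FPKM in BACH1-KO, with overlapping groups (log2 change 0.08, adjusted p = 0.0678). Eif1ax passed as higher with median-of-ratios scaling, an equal sum of FPKM and quantile normalization, and without the second knockout library (adjusted p = 0.0347). As close copies, Eif1a and Eif1ax can share reads.

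All but 1 of the eIF2 subunits and eIF2-like factors fell. Each of these genes averages 50 FPKM or more, a level at which 55.0% of all tested genes were lower and 28.6% higher. Eif2s3x, the X-linked gamma subunit that holds GTP and the initiator tRNA, was at 65.0, 64.8 and 64.9 FPKM in WT and 42.8, 43.0 and 42.8 FPKM in BACH1-KO (log2 change -0.59, SE 0.03, adjusted p = 6.43e-07). Eif2s1, the alpha subunit phosphorylated in the integrated stress response, fell from 156.4 ± 1.81 to 121.5 ± 2.61 FPKM (log2 change -0.36). Eif2s2, the beta subunit, was at 344.5, 347.0 and 340.1 FPKM and 342.1, 335.6 and 339.0 FPKM, with overlapping groups (log2 change -0.02, SE 0.03, adjusted p = 0.482). Its log2 change was above 0 with median-of-ratios scaling, an equal sum of FPKM and quantile normalization, under which it passed. The 3 subunits act as one complex, and their transcripts kept 66.1%, 77.7% and 98.6% of the WT mean. The alternative initiator tRNA carriers Eif2a and Eif2d also fell, from 130.8 ± 5.79 to 111.7 ± 1.31 FPKM and from 100.6 ± 1.01 to 76.1 ± 1.21 FPKM, and the call for Eif2a was lost with quantile normalization.

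In eIF2B, the exchange factor that phosphorylated eIF2 blocks, 1 regulatory subunit stood out. Eif2b2, the beta subunit, was at 22.3, 22.3 and 22.5 FPKM in WT and 40.4, 40.0 and 38.0 FPKM in BACH1-KO, 1.76 times as high (log2 change 0.79, SE 0.04, adjusted p = 5.37e-07). The least abundant of the 5 subunit transcripts in WT, it rose above Eif2b4, the delta subunit, which fell from 31.1 ± 1.94 to 24.2 ± 1.73 FPKM. Of the catalytic subunits, Eif2b5 (epsilon) fell from 63.7 ± 1.86 to 52.0 ± 0.465 FPKM and Eif2b3 (gamma) rose from 70.3 ± 3.58 to 77.1 ± 2.01 FPKM. The rise of Eif2b3 was not called without the first (adjusted p = 0.0669) or second (0.0720) knockout library. Eif2b1, the alpha subunit, was at 46.8 ± 2.72 and 48.0 ± 2.35 FPKM (adjusted p = 0.557). The 5 transcripts summed to between 230.5 and 236.7 FPKM in WT and between 234.2 and 247.7 FPKM in BACH1-KO, and these ranges overlap.

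eIF3, the largest initiation factor, had 13 subunit transcripts of at least 1 FPKM, of which 9 fell, 3 rose and 1 did not pass, and none of the 13 had overlapping groups. Most of the 13 are abundant. Of all tested genes averaging 50 FPKM or more, 55.0% were lower, 28.6% higher and 85.0% had groups that did not overlap. Eif3a, a core subunit around which the complex assembles, was at 146.6, 147.5 and 142.6 FPKM in WT and 82.4, 76.7 and 77.3 FPKM in BACH1-KO (log2 change -0.88, SE 0.04, adjusted p = 2.83e-07). Eif3b, the scaffold of the module that binds eIF3g and eIF3i, fell from 128.1, 130.2 and 127.6 FPKM to 81.3, 82.1 and 83.0 FPKM (log2 change -0.64, SE 0.03). Eif3i fell from 385.7, 396.0 and 426.8 FPKM to 266.3, 279.9 and 274.1 FPKM (log2 change -0.56, SE 0.04). Their partner Eif3g was at 210.5 ± 4.08 and 220.6 ± 3.53 FPKM (log2 change 0.07, adjusted p = 0.0620) and passed as higher with median-of-ratios scaling, an equal sum of FPKM and quantile normalization, and without the first WT library (adjusted p = 0.0376). Eif3d, which can bind the cap of selected mRNAs, and Eif3c fell to 68.8% and 71.2% of WT. Eif3l, Eif3h and Eif3k kept 75.6%, 82.2% and 84.0%, the call for Eif3k being lost with quantile normalization, and Eif3m, at 356.9 ± 3.16 and 336.4 ± 5.30 FPKM, was a borderline case (log2 change -0.08, adjusted p = 0.0189). Eif3m rose with quantile normalization and was not called with 2 other scalings or with a constant prior variance. It also lost its call when the second or the last library of either genotype was left out (adjusted p of 0.0503 to 0.0807).

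The eIF3 subunits that rose were Eif3e, Eif3j2 and Eif3f. Eif3e, also known as Int6, was at 346.0, 329.1 and 323.4 FPKM in WT and 449.4, 452.9 and 440.8 FPKM in BACH1-KO (log2 change 0.43, SE 0.03, adjusted p = 7.62e-06). Among the subunits it was the sixth by mean level in WT and the second in BACH1-KO, after Eif3k. In WT the ranges of Eif3h and Eif3i overlapped, as did those of Eif3m and Eif3l, Eif3l and Eif3e, and Eif3c and Eif3d, so their order is not resolved. Eif3j2, a loosely bound subunit, rose from 31.9 ± 1.05 to 37.9 ± 2.47 FPKM and was the lowest of the 13 in both genotypes. Eif3j1 is a near-identical copy, so fragments of the pair may be shared out between the symbols. Eif3f rose from 188.4 ± 13.5 to 209.8 ± 4.06 FPKM (adjusted p = 0.0220) and was not called without the second (adjusted p = 0.0686) or the last (0.0586) knockout library.

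**Figure D3:**
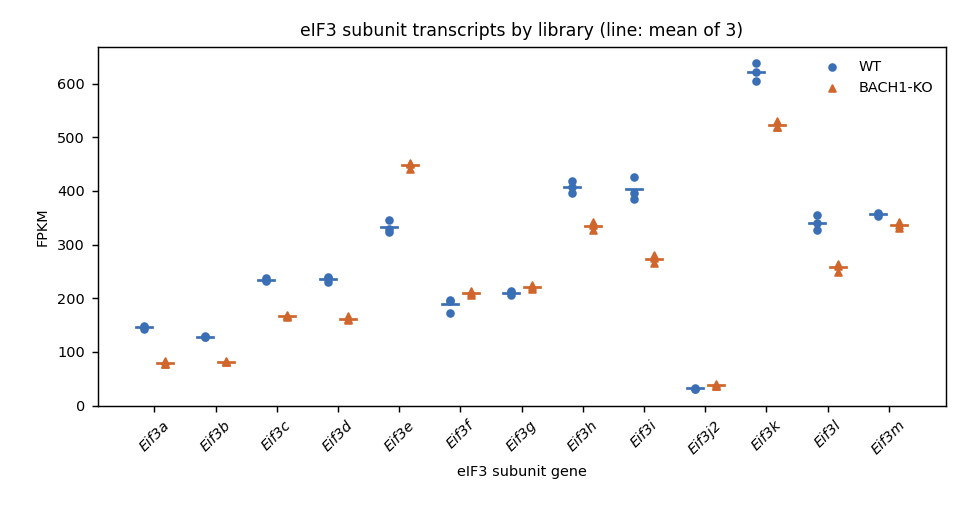
FPKM (y axis, from 0) of each eIF3 subunit transcript (x axis) in the 3 WT (circles) and 3 BACH1-KO (triangles) libraries, with a line at each mean. Eif3a, Eif3b, Eif3c, Eif3d and Eif3i sit clearly lower in BACH1-KO, while Eif3e moves from 332.8 to 447.7 FPKM.

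The factors of start codon recognition and subunit joining had 2 rises and 1 fall. Eif5, the GTPase activator of eIF2, was at 85.0, 67.9 and 65.2 FPKM in WT and 91.5, 87.9 and 90.9 FPKM in BACH1-KO (log2 change 0.32, SE 0.09, adjusted p = 0.0114). The first WT library lies nearer to the knockout libraries than to the other WT libraries. Eif6, which keeps the large ribosomal subunit from joining too early, rose from 87.4, 83.0 and 91.8 FPKM to 106.4, 109.7 and 107.1 FPKM (log2 change 0.30, SE 0.04). Eif5b, the GTPase that joins the subunits, fell from 27.8 ± 1.04 to 21.6 ± 0.344 FPKM, and its exons overlap those of Rev1 on the other strand by up to 419 bases. Eif5a (chromosome 11, 69916714 to 69921958), the factor that helps ribosomes through stalling sequences and known to carry the modified residue hypusine, was at 1566, 1506 and 1607 FPKM in WT and 817.9, 851.2 and 843.7 FPKM in BACH1-KO. It kept 53.7% of the WT mean (log2 change -0.90, SE 0.03, adjusted p = 1.89e-07). Eif5a2, its paralog, was at 6.43, 6.97 and 7.22 FPKM and 7.65, 7.35 and 7.70 FPKM. These groups are apart by a small margin, but the difference did not pass (log2 change 0.12, SE 0.06, adjusted p = 0.0845). It passed with median-of-ratios scaling and with an equal sum of FPKM.

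Among the elongation factors Eef1a1 fell and Eef2 did not pass the test. Eef1a1 (chromosome 9, 78478449 to 78489151), the most abundant of the 56 in every library, was at 14052, 14805 and 15031 FPKM in WT and 10518, 10756 and 10735 FPKM in BACH1-KO (log2 change -0.45, SE 0.04, adjusted p = 1.21e-05). Quantile normalization sets the most abundant gene of every library equal and so gives no difference for it. Eef1a2, the form of muscle and neurons, was at 0.774, 1.00 and 0.936 FPKM in WT and 1.52, 1.48 and 0.955 FPKM in BACH1-KO. The third knockout library is within the WT range (log2 change 0.28, SE 0.12, adjusted p = 0.0606), and without it the gene passed (log2 change 0.39, adjusted p = 0.00840). It also passed with an equal sum of FPKM (adjusted p = 0.0395) and, at an adjusted p of 0.0484, under a constant prior variance. Its sign turned with quantile normalization (log2 change -0.04). Eef2 was at 1445, 1526 and 1565 FPKM in WT and 1436, 1477 and 1465 FPKM in BACH1-KO, with overlapping groups (log2 change -0.05, SE 0.04, adjusted p = 0.230). Without the first WT library it passed as lower (adjusted p = 0.0277), and with quantile normalization as higher (log2 change 0.13, adjusted p = 0.0263). Eef2k, the kinase that inactivates eEF2, fell from 5.23, 4.30 and 4.62 FPKM to 2.62, 2.88 and 2.73 FPKM (log2 change -0.61, SE 0.08, adjusted p = 1.48e-04).

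The subunits of eEF1B, the exchange factor of eEF1A, went different ways. Eef1d was at 333.1, 338.6 and 331.7 FPKM in WT and 197.5, 195.0 and 195.8 FPKM in BACH1-KO (log2 change -0.77, SE 0.03, adjusted p = 1.12e-07); its exons overlap those of Naprt on the same strand by up to 277 bases. Eef1b2, the other catalytic subunit, was at 727.9, 776.0 and 715.6 FPKM in WT and 944.1, 882.6 and 872.2 FPKM in BACH1-KO (log2 change 0.28, SE 0.04, adjusted p = 4.55e-04). So the 2 exchange subunits moved apart: Eef1b2 rose to 1.22 times and Eef1d fell to 0.586 times the WT mean. Eef1g, the structural subunit, fell from 1220 ± 30.3 to 1040 ± 12.9 FPKM, a call lost with quantile normalization. Eef1e1, a component of the aminoacyl-tRNA synthetase complex despite its symbol, rose from 170.5 ± 2.83 to 206.2 ± 2.17 FPKM.

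Ratios between paralogs were computed in each library, since a ratio does not change when a library is multiplied by a constant. Of the 9 pairs with both genes among the 56, 8 had ratios that did not overlap between the genotypes. The exact two-sided permutation test gave p = 0.1 for each of these, the smallest that 3 against 3 libraries allow (0.1125 after Benjamini-Hochberg adjustment over the 9 pairs), so none could reach 0.05. The ratio of Eif4g1 to Eif4g3 went from 68.2, 74.8 and 74.2 in WT to 21.5, 23.8 and 23.5 in BACH1-KO. That of Eif4e to Eif4e3 went from 75.0, 60.7 and 72.3 to 20.7, 25.4 and 21.6, and that of Eif5a to Eif5a2 from 243.5, 216.2 and 222.7 to 106.9, 115.8 and 109.6. In these pairs the abundant form lost ground to the scarce one, though Eif5a2 itself did not pass. The same lean by level was seen in all tested genes. Of those averaging 50 FPKM or more 55.0% were lower, and of those under 5 FPKM, as Eif4g3 and Eif4e3 are, 44.7% were higher. The ratio of Eif4ebp1 to Eif4ebp2 went the other way, from 9.36, 9.36 and 9.63 to 16.4, 17.1 and 16.6. Eif4a1 to Eif4a2 differed less, going from 2.15 ± 0.205 to 2.52 ± 0.0339, as did Eif1 to Eif1b, from 17.5 ± 0.144 to 14.7 ± 0.786, and Eif1a to Eif1ax, from 0.411 ± 0.0235 to 0.343 ± 0.0133. Eif4e to Eif4e2, at 1.56 ± 0.118 and 1.62 ± 0.0802, overlapped (exact permutation p = 0.4). The ratio of Eef1a1 to Eef1a2 had its log2 lowered by 0.98 on average, with the third knockout library nearest to WT.

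**Figure D4:**
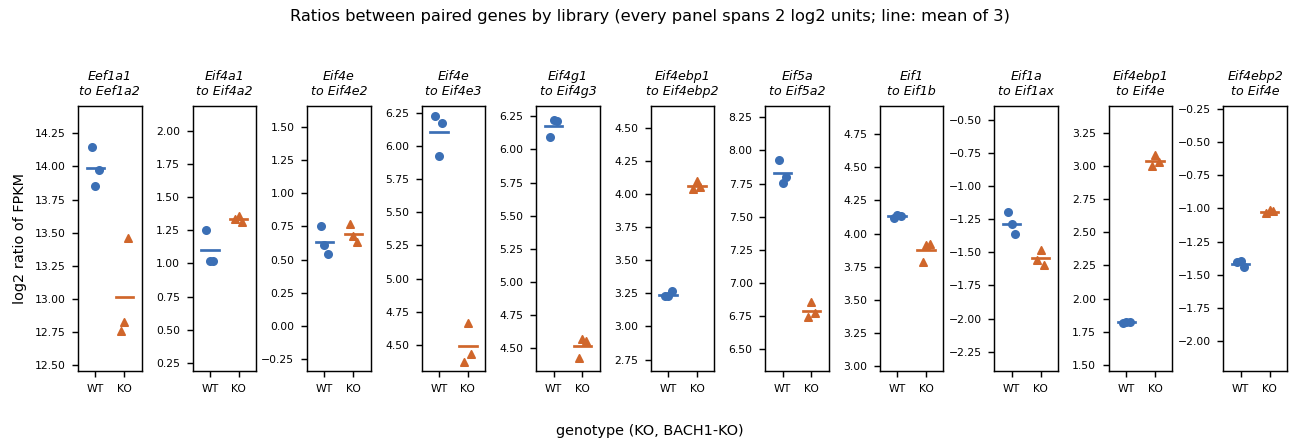
Log2 ratio of FPKM between paired genes (y axis, each panel spanning the same log2 distance) in the 3 WT (circles) and 3 BACH1-KO (KO, triangles) libraries, with a line at each mean. The ratios to Eif4e3, Eif4g3 and Eif5a2 are lower and that of Eif4ebp1 to Eif4ebp2 is higher in BACH1-KO, while Eif4e to Eif4e2 overlaps.

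Other genes of the translation pathway moved as often in one direction as in the other. Of 80 tested genes that signal to, modify or work beside these factors, 30 were higher, 31 lower and 19 not past the threshold, with a median log2 change of -0.02. These counts are close to the shares among all tested genes, 37.3% higher and 39.7% lower, which are also the background for each list below. In the list of mTORC1 and MNK signalling 8 of 19 rose and 6 fell. Sesn2 and Ddit4, which restrain mTORC1 under stress, rose from 11.6 ± 0.582 to 40.6 ± 2.02 FPKM and from 123.6 ± 16.3 to 319.6 ± 2.47 FPKM. Sesn1, a related gene, fell from 30.3 ± 1.42 to 16.2 ± 0.945 FPKM, and Mtor itself from 8.04 ± 0.206 to 6.93 ± 0.0166 FPKM. Larp1, which binds mRNAs with a terminal oligopyrimidine tract, the class to which many elongation factor mRNAs belong, was at 41.1 ± 0.318 and 40.4 ± 0.906 FPKM (adjusted p = 0.527).

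Of the 14 tested genes around eIF2alpha phosphorylation 8 rose and 4 fell, with a median log2 change of 0.74. Ppp1r15a, the inducible phosphatase subunit that directs dephosphorylation of eIF2alpha, rose from 10.7 ± 0.894 to 36.0 ± 1.03 FPKM, and the response genes Atf4, Trib3 and Chac1 rose with log2 changes of 2.18, 2.44 and 6.05. The other 4 that rose were Ppp1r15b, Impact, Ddit3 and Asns. None of the 4 kinases passed as higher. Eif2ak1, Eif2ak2 and Eif2ak4 fell (log2 changes of -0.35, -0.78 and -0.17), and Eif2ak3, which encodes PERK, was at 6.28 ± 0.349 and 6.28 ± 0.0565 FPKM (adjusted p = 0.988).

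Among 20 initiation and cap-binding partners 12 fell and 4 rose, where 39.7% of all tested genes were lower and 37.3% higher. Of all tested genes averaging 50 FPKM or more 55.0% were lower, but several of the partners, such as Paip1 and Dhx29, are below that level. Abcf1, which binds eIF2 and ribosomes, fell from 106.4 ± 0.621 to 47.9 ± 1.33 FPKM, Ncbp2, of the nuclear cap-binding complex, from 106.8 ± 3.39 to 51.7 ± 1.97 FPKM, and the helicase Dhx9 from 100.7 ± 4.43 to 54.8 ± 0.872 FPKM. Pabpc1, the poly(A)-binding protein that bridges to eIF4G, fell from 460.9 ± 19.5 to 371.5 ± 10.1 FPKM. Pdcd4, an inhibitor of eIF4A, was at 27.7 ± 2.53 and 26.3 ± 1.13 FPKM, with overlapping groups (adjusted p = 0.340). Of 8 termination and recycling genes 3 rose and 3 fell. The release factor Etf1 was at 126.5 ± 4.77 and 126.4 ± 1.57 FPKM (adjusted p = 0.981), its partner Gspt1 fell from 53.4 ± 2.97 to 39.5 ± 1.05 FPKM, and the recycling factor Abce1 from 180.1 ± 0.232 to 153.0 ± 2.03 FPKM. N6amt1 and Trmt112, whose products together methylate the release factor, moved apart, from 6.14 ± 0.265 to 11.5 ± 1.11 FPKM and from 66.2 ± 2.18 to 48.1 ± 2.66 FPKM.

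Of the 9 genes that modify eIF5A and eEF2, 4 rose and 2 fell. Dhps, the first enzyme of hypusine formation, rose from 36.3 ± 3.24 to 65.4 ± 1.41 FPKM while its substrate Eif5a fell, and Dohh, the second enzyme, was at 85.7 ± 6.98 and 84.8 ± 1.34 FPKM (adjusted p = 0.839). Dph6 and Dph7, of diphthamide synthesis on eEF2, rose with log2 changes of 0.45 and 0.47. Of 11 mitochondrial translation factors 5 fell and 3 rose. Tufm, the mitochondrial counterpart of eEF1A, fell from 192.7 ± 6.64 to 59.4 ± 2.64 FPKM (log2 change -1.68, SE 0.04, adjusted p = 3.08e-08), further down than any cytosolic factor on this scale. Guf1 and Gfm1, mitochondrial translation GTPases, fell with log2 changes of -1.07 and -0.80.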

How the data were processed

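Total RNA was taken with Trizol and made into libraries with an Illumina TruSeq kit, per the labels' protocols. The deposited table gives FPKM per gene symbol and library, made by the authors with Cufflinks on mouse build mm10, per the submitters' processing notes. For the aligner, the annotation and tool versions, nothing is given in the sources used here. FPKM is a share of the library divided by transcript length, so transcripts that rise strongly take share from all others. Column names give the genotype but match no single sample title, so columns served as unnumbered replicates, 3 per group. Rows named by a bare number (23 of them, holding 0.0987% of all FPKM) were dropped.

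For 12187 genes averaging 1 FPKM or more, limma 3.58.1 under R 4.3.3 (lmFit, eBayes with a mean-variance trend, two-sided) tested log2(FPKM + 1), adjusted by Benjamini-Hochberg over all of them. An adjusted p under 0.05 is called rose or fell; log2 changes are on the log2(FPKM + 1) scale, which understates low genes. Levels are means ± SD, n = 3. Full values are given for the 12 higher and 12 lower genes with the largest fold change past the threshold and for paralog pairs; most others as mean ± SD. Of the pathway genes, 13 fixed names and up to 3 per list with the smallest adjusted p are named, and the other pathway names were picked with their values in view. The genes, lists, motifs and rules were chosen with earlier results of these data known. Gene coordinates are from GENCODE M21 (GRCm38). Alternatives were other pseudocounts, filters, scalings, prior variance, a fold change of 1.5 and leaving out each library.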

Additional observations from a re-analysis of the deposited data

How the results depend on the processing

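Tested against a fold change of 1.5, 5 translation factors were higher and 7 lower, and 34 of the 46 calls were lost. All genes then had 1325 higher and 994 lower, and the other translation pathway genes 13 and 8. With a filter at 5 FPKM, which left out 5 of the 56 genes, 2942 of 8613 tested genes were higher and 3862 lower. Of the 3574 genes averaging 1 to 5 FPKM, 44.7% were higher in the main fit. Quantile normalization gave 22 translation factors higher and 23 lower, an equal sum of FPKM 20 and 28, and median-of-ratios scaling 19 and 29, so the split between rises and falls depends on the scaling. The summed share of the 56 genes in BACH1-KO was 0.817 of that in WT, and 0.796 of the sum after median-of-ratios scaling. Signs turned for small differences: to 0.0027, 0.038 and 0.052 for Eif4ebp2 and 0.0047, 0.041 and 0.14 for Eif2s2 (median-of-ratios, equal sum and quantile), to 0.011 and 0.13 for Eef2 (equal sum and quantile), and with quantile normalization to -0.043 for Eef1a2 and 0.0705 for Eif3m (log2 fold changes). When a library was left out, Eif2b1 ranged from -0.0026 (without the second knockout library) to 0.0796 (without the first WT library). It was also below 0, at -3.83e-04, without the second WT library. With an equal sum of FPKM it was at 0.096 and with quantile normalization at 0.119. The causes were not tested. Leaving out a library in turn gave 15 to 18 higher and 29 to 31 lower. No paired analysis was possible because the table's columns cannot be tied to sample titles. Some titles share an ending across the genotypes, whose meaning the labels do not give, so a shared batch may exist that no p-value here accounts for. Absolute depth is unknown, which limits statements on genes near 1 FPKM such as Eef1a2.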
